A study of Mus musculus with 19 samples.

Results

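The genes described here are 10 factors that mark or maintain basal progenitor cells of the oral epithelium, taken by name from the 24689 gene symbols of a bulk RNA-seq table. They were Trp63, Sox2, Pitx1, Klf5, Bmi1, Gli2, Gli3, Id1, Id3 and Lrig1. RNA came from whole tongue epithelium of 19 mice in 4 groups, sampled on day 15 after transgene induction. The E group (5 mice) carried Krt14-CreERT, LSL-rtTA and tetON_E6-E7, which encodes the E6 and E7 oncoproteins of a human papillomavirus. The Y group (3 mice) carried tetON_YAP1S127A in place of the oncoproteins, a form of the transcriptional co-activator YAP that Hippo signaling cannot restrain, and the EY group (6 mice) carried both. Of the 5 control (N) mice, mice 1, 2 and 3 had Krt14-CreERT and LSL-rtTA alone. N mouse 4 was labelled LSL-rtTA without Cre, and N mouse 5 Krt14-CreERT, tetON_E6-E7 and tetON_YAP1S127A without rtTA. Per the study's methods, animals were littermates of 8 to 16 weeks with a tetON_H2B-GFP reporter, given 3 tamoxifen injections into the tongue and kept on doxycycline chow. The Krt14 promoter limited the transgenes to KRT14+ basal cells and their progeny, while the RNA came from all layers. Reads recovered from the steps of the values ranged from 8269674 to 11007304 per mouse.

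Stratified oral epithelium is renewed by cells of its basal layer, which divide, leave the basement membrane and differentiate on their way to the surface. The transcription factor p63, encoded by Trp63, is required for stratified epithelia to form, and SOX2, PITX1 and KLF5 act beside it in oral progenitors. Hedgehog signals are read by the GLI factors, BMP signals induce the ID proteins, BMI1 belongs to a Polycomb complex that silences cell cycle inhibitors, and LRIG1 is a brake on growth factor receptors that marks quiescent epithelial stem cells.

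The tissue was squamous epithelium by its markers. Krt13, a keratin of the differentiating layers, reached 46600 to 88800 TPM (transcripts scaled to a common total per mouse) in N mice, and the basal keratin Krt14 4660 to 8720 TPM. All 10 factors were detected in every mouse, and all passed the filter of 0.1 TPM in at least 3 mice. Of these, 9 were at or above 0.1 TPM in all 19 mice, while Gli3 reached it in 17 mice and fell short in N mice 3 and 5.

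The deposited TPM values turned out to be divided by the span of each gene with its introns. For 11019 of the 11109 genes compared (99.2%), the worth of 1 read matched the whole span within 1%, whereas the exon length matched for 104 genes (0.9%). The order of the 10 genes depends on this scale, most of all for Trp63 and Sox2. Trp63 spans 208340 bases but has 8391 exonic bases, a ratio of 24.8, and Gli2 has a ratio of 32.0. In deposited TPM per span, the median level over 19 mice ran from 551.8 TPM for Id1 through Sox2 (131.5), Pitx1 (104.1), Id3 (101.7), Klf5 (98.0), Bmi1 (13.2), Trp63 (6.995) and Lrig1 (0.867) to Gli2 (0.204) and Gli3 (0.192). With levels recomputed per exon length, Trp63 moved up to 79.1 TPM, above Id3 (57.5) and Sox2 (57.1), and Pitx1 (191) and Klf5 (137) stood next to Id1 (247). Gli2 and Gli3 stayed the least abundant on both scales, with 2.93 and 2.47 TPM per exon length. The log2 fold changes of Gli2 and Gli3 in EY vs N went from -0.5 to -0.79 and from 0.78 to 1.12 with exon lengths. Values below are deposited TPM unless said otherwise.

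**Figure D1:**
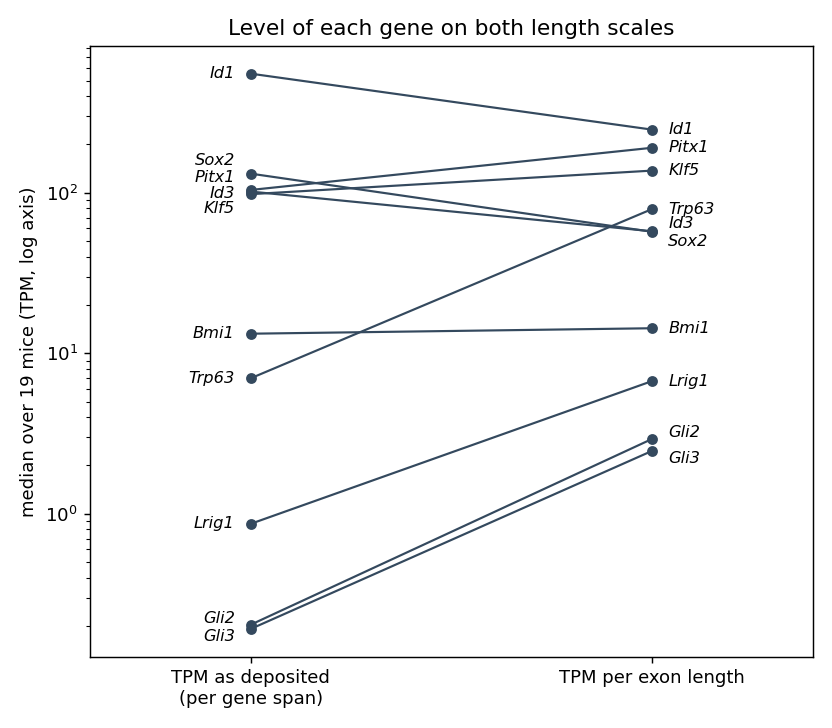
Median level of each gene over 19 mice on a log axis, in TPM as deposited (left, divided by the gene span) and in TPM per exon length (right). Trp63 rises from 6.995 to 79.1 TPM and changes places with Bmi1, Id3 and Sox2.

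In the epithelium with both transgenes, the 10 factors did not move together. Bmi1, Klf5 and Gli3 were higher in EY than in N, Id3 was lower, and Trp63, Sox2, Pitx1 and Id1 had mean differences smaller than 2 standard errors. In deposited TPM Bmi1 changed most, to 2.18 times the N level, and Klf5 reached 1.54 times, while under other scalings Id3 or Gli3 changed more than Bmi1. Gli2 and Lrig1 leaned in opposite directions without passing the test. In bulk tissue, a change in the number of cells that make a transcript and a change in the amount per cell cannot be told apart.

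By limma with Benjamini-Hochberg adjustment over 22745 genes, 4 of the 10 factors passed an adjusted p of 0.01 in EY vs N, beside 31.9% of all genes tested. The 3 higher factors compare with 23.9% of all genes called higher, and the 1 lower factor with 7.97% called lower. Only Bmi1 also exceeded an absolute log2 fold change of 1, a rule that 18.3% of all genes met. The groups did not overlap for Klf5 and Bmi1 (EY above N) and for Id3 (EY below N), against 27.4% of all genes without overlap. The median log2 fold change of the 10 was -0.02, and that of all genes tested was 0.33. Values were taken as log2(TPM + 0.1), which understates the change of weakly expressed genes such as Gli2 and Gli3.

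**Figure D2:**
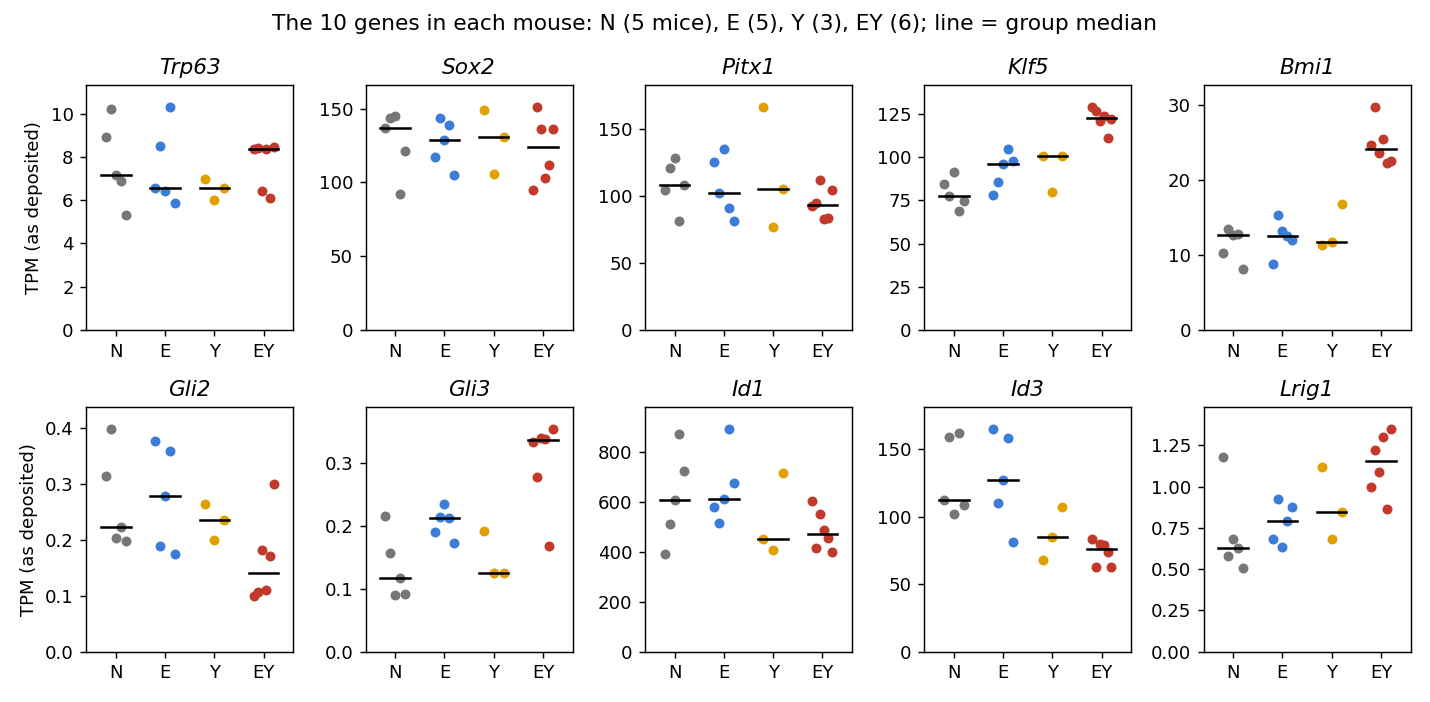
Deposited TPM of each of the 10 genes in each of the 19 mice by group, on a linear axis from 0, with lines at the group medians. Bmi1 and Klf5 lie above all N mice in 6 of 6 EY mice, and Id3 lies below all N mice in 6 of 6.

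The shift of the whole transcriptome matters for genes near the threshold. Median-of-ratios scaling, which sets the typical gene equal between mice, moved the median of all genes in EY vs N from 0.328 to 0.0114. It lowered the share of higher genes among those passing from 75% to 49.6%, with 27.3% of all genes still called. Relative to that typical gene, Bmi1 was 0.75 higher (adjusted p = 0.000322) and Id3 -1.17 (adjusted p = 9.07e-05). Klf5 at 0.25 (adjusted p = 0.0136) and Gli3 at 0.53 (adjusted p = 0.0358) stayed higher but no longer passed. Sox2, at -0.07 before scaling, came to -0.45 and passed as lower (adjusted p = 0.00712, range over its alternatives 0.00712 to 0.998).

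**Figure D3:**
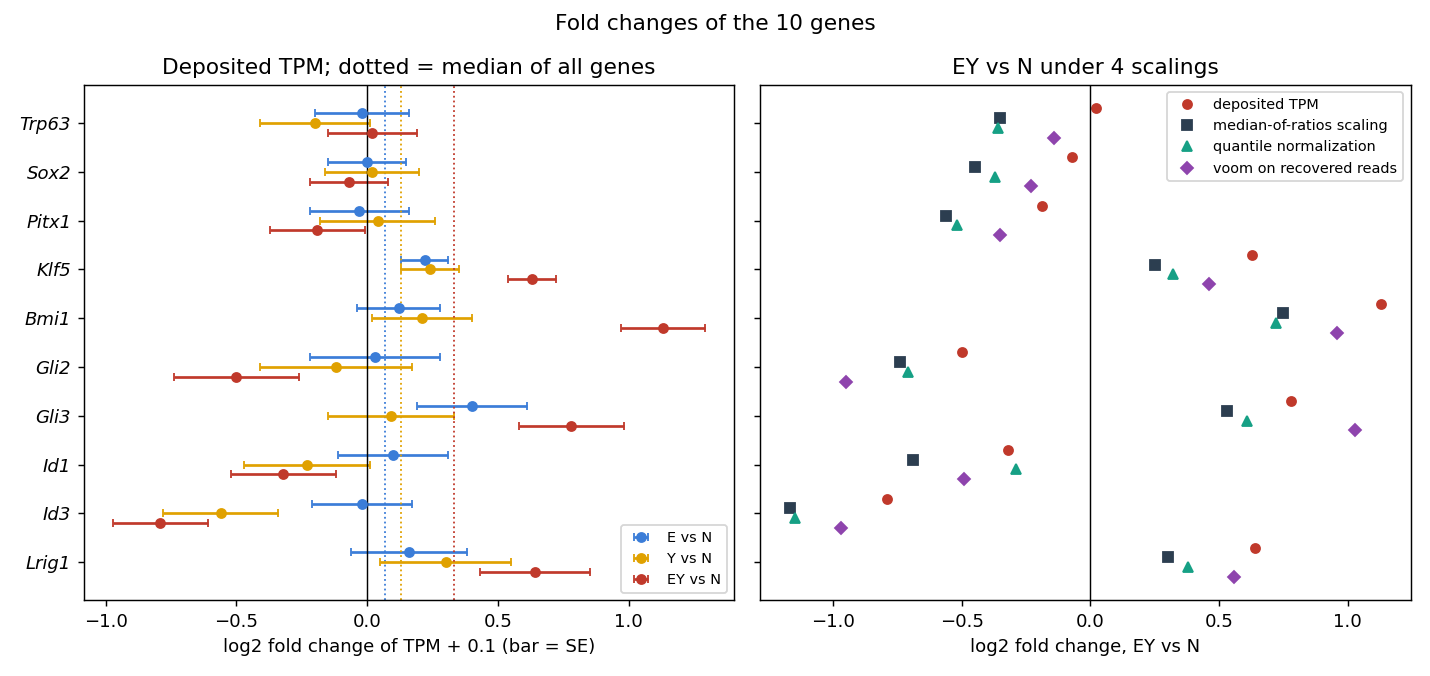
Left, log2 fold change of each gene in E, Y and EY against N with bars of 1 standard error, and dotted lines at the median of all genes. Right, EY vs N under 4 scalings; Trp63 lies on either side of 0, Sox2 and Pitx1 lie at or below 0 and Bmi1 lies above 0 under each.

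Trp63, Sox2 and Pitx1, the lineage factors of this set, varied as much between mice of a group as between groups. Trp63 stood at 8.91, 10.2, 7.15, 6.89 and 5.31 TPM in the N mice, at 6.58, 8.49, 6.44, 10.3 and 5.88 TPM in E, and at 6.99, 6.0 and 6.58 TPM in Y. In EY it ranged from 6.12 to 8.45 TPM with a median of 8.37 TPM. Every EY mouse lay within the range of the N mice. In EY vs N its log2 fold change was 0.02 (SE 0.17, adjusted p = 0.932 by limma), and it turned to -0.35 after median-of-ratios scaling. Sox2, a factor of tongue and taste progenitors, spanned 92.3 to 145 TPM in N and 95.1 to 151 TPM in EY (median 124), again overlapping. Pitx1, which helps set oral and hindlimb identity, spanned 81.2 to 128 TPM in N and 82.3 to 112 TPM in EY, with a log2 fold change of -0.19 (SE 0.18, adjusted p = 0.438). It came to -0.56 after median-of-ratios scaling (adjusted p = 0.0155) and -0.52 after quantile normalization (adjusted p = 0.0207), which did not pass. The widest Pitx1 range was in Y, where mouse 1 had 166 TPM and mouse 2 had 76.9 TPM. Sox2 overlaps Sox2ot, and how reads from the shared stretch were assigned is not known. Sox2ot held 2 to 52 reads per mouse, against 293 to 554 for Sox2.

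Klf5, a zinc finger factor of dividing basal keratinocytes, had the steadiest levels of the 10. It stood at 84.4, 77.8, 91.4, 69.0 and 74.4 TPM in N, at 78.3, 85.7, 95.9, 105 and 98.0 TPM in E, and at 101, 80.0 and 101 TPM in Y. The EY mice had 111 to 129 TPM with a median of 123 TPM. In deposited TPM all 6 EY mice exceeded every mouse of the other groups. After median-of-ratios scaling, EY mouse 5 (98.9 TPM) lay below E mice 3, 4 and 5 (99.0, 101 and 101 TPM) and Y mouse 1 (100 TPM). EY mouse 6 (100 TPM) then lay below E mice 4 and 5. In EY vs N the log2 fold change of Klf5 was 0.63 (SE 0.09, adjusted p = 2.29e-05 by limma), and 6 of 6 EY mice lay above all N mice. After median-of-ratios scaling it was 0.25 and did not pass (adjusted p = 0.0136 by limma). Its residual SD was 0.144 on the log2 scale, lower than that of most genes of similar level, of which 7.22% varied less.

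Bmi1, the Polycomb ring finger protein, separated the EY mice from all others. Its levels were 10.2, 13.4, 12.6, 12.8 and 8.08 TPM in N, 8.78, 15.3, 13.2, 12.5 and 12.0 TPM in E, and 11.3, 11.7 and 16.8 TPM in Y. In EY they ran from 22.3 to 29.7 TPM with a median of 24.1 TPM. The lowest EY mouse was above the highest mouse of each other group, and N, E and Y overlapped. The log2 fold change was 1.13 (SE 0.16, adjusted p = 1.44e-05 by limma) with 6 of 6 EY mice above all N mice, and the call held under each of 12 other settings and in each of 19 fits without 1 mouse. Commd3, which lies next to Bmi1 on the chromosome, went from 63.2 to 92.8 TPM in N to 99.7 to 130 TPM in EY. After median-of-ratios scaling its ranges overlapped (69.1 to 97.8 TPM in N, 82.0 to 112 TPM in EY). Its log2 fold change went from 0.63, which passed, to 0.25, which did not. A 300-base stretch around the start of Bmi1 is shown because this gene passed under every setting (RefSeq, GRCm38.p6, chr2:18676768-18677067, plus strand, 250 bases before to 50 after the start). Capitals mark GGAATG, a TEAD motif at -228, and GGCGCC, a GC-rich SMAD element at -51.
Bmi1 promoter: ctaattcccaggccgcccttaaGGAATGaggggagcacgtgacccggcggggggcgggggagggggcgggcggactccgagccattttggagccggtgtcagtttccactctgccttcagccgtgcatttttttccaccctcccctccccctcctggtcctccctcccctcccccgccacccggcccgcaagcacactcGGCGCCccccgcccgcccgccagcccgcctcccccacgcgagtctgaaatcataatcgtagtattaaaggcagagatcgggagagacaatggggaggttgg

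Of 15 other genes of Polycomb repressive complex 1, 2 were higher and 1 was lower in EY vs N. The median was 0.26, which turned to -0.11 after median-of-ratios scaling, where 1 was called higher and 3 lower. Pcgf6, a relative of BMI1 in variant complexes, stood at 5.81 to 9.52 TPM in N and 11.2 to 17.2 TPM in EY (log2 fold change 0.91, adjusted p = 1.86e-05). Phc1, a Polyhomeotic subunit, had a log2 fold change of 0.7 (adjusted p = 0.00111). Both genes had 6 of 6 EY mice above the N range, as Bmi1 did.

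Gli2 and Gli3, the transcription factors at the end of the hedgehog pathway, had mean differences of opposite sign in EY vs N, of which only that of Gli3 passed. Gli3, mostly a repressor when hedgehog is silent, stood at 0.216, 0.158, 0.0911, 0.118 and 0.0915 TPM in N. It stood at 0.191, 0.214, 0.235, 0.213 and 0.174 TPM in E, at 0.192, 0.126 and 0.125 TPM in Y, and at 0.168 to 0.355 TPM in EY with a median of 0.337 TPM. In EY, 5 of 6 mice exceeded every mouse of N, E and Y, while EY mouse 5 had 0.168 TPM. The log2 fold change was 0.78 (SE 0.2, adjusted p = 0.00425 by limma), with 5 of 6 EY mice above all N mice. These levels rest on 38 to 101 reads per N mouse and 68 to 160 per EY mouse, and the size of the change depends on the pseudocount, from 0.2 with 1 TPM to 1.14 with 0.01 TPM. Gli3 overlaps Gm6556, and how reads from the shared stretch were assigned is not known. The call was lost without N mouse 3, N mouse 4, N mouse 5 or EY mouse 6, with log2 fold changes of 0.72 to 0.9 over all fits without 1 mouse and adjusted p up to 0.0145.

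Gli2, the main activator, leaned the other way. It stood at 0.314, 0.398, 0.204, 0.222 and 0.197 TPM in N, at 0.377, 0.189, 0.279, 0.359 and 0.174 TPM in E, and at 0.263, 0.2 and 0.235 TPM in Y. The EY mice had 0.1 to 0.299 TPM with a median of 0.141 TPM. In 5 of 6 EY mice Gli2 was below all N mice, and EY mouse 6 had the highest EY level. Its log2 fold change was -0.5 (SE 0.24, adjusted p = 0.105 by limma), which did not pass. It was -0.74 after median-of-ratios scaling (adjusted p = 0.014) and -0.95 by voom (adjusted p = 0.012), neither of which passed.

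The log2 ratio of Gli2 to Gli3 within a mouse, which no scaling of libraries can change, was 0.54, 1.33, 1.16, 0.91 and 1.11 in N. It was 0.98, -0.18, 0.25, 0.75 and 0.0 in E, and 0.45, 0.66 and 0.91 in Y. In EY it ran from -1.74 to 0.03 with a median of -1.15. Every N and Y mouse had a positive ratio and all EY mice lay below them. The mean difference in EY vs N was -1.99, with a two-sided exact permutation p = 0.00433, the smallest that 462 assignments allow, and an adjusted p = 0.0541 over 25 tests of ratios. Against E, the EY ratio differed by -1.34 (exact permutation p = 0.013, adjusted p = 0.108). None of the 25 tests passed an adjusted p of 0.05, and 5 had an unadjusted exact p under 0.05. Klf5 to Trp63 was another of these, at 2.94 to 3.81 in N and 3.85 to 4.23 in EY, a difference of 0.6 (exact permutation p = 0.00433, adjusted p = 0.0541). Sox2 to Trp63 differed by -0.09 in EY vs N (exact permutation p = 0.667).

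**Figure D4:**
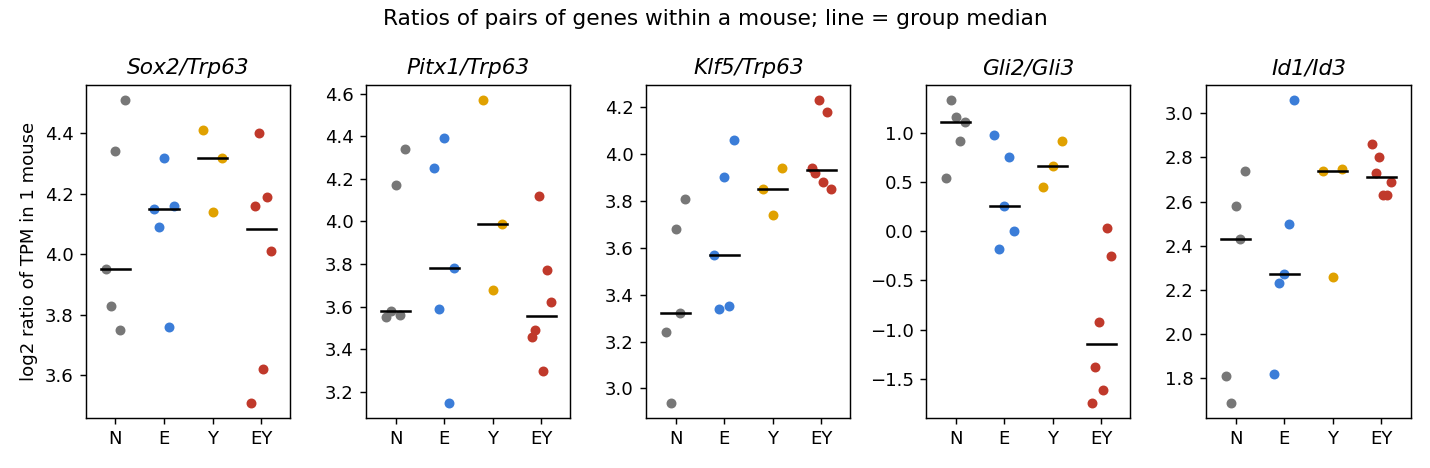
Log2 ratio of the TPM of 2 genes within each mouse, for 5 pairs and 4 groups, with lines at the group medians. The Gli2 to Gli3 ratios of EY mice, -1.74 to 0.03, lie below all N and Y mice and overlap those of E.

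The start of Gli3 is shown because the gene rose while its partner did not (RefSeq, GRCm38.p6, chr13:15463473-15463772, plus strand). It has 71.0% G and C, 39 CG pairs and none of the 3 motifs searched on both strands.
Gli3 promoter: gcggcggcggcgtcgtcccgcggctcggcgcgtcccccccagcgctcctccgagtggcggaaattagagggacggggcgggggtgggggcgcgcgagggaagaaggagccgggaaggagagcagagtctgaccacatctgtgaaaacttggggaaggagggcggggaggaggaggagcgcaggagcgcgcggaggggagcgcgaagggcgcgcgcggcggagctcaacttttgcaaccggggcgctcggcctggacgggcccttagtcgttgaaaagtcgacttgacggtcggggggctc

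Other hedgehog genes were more often lower than higher. Of 14 tested, 4 fell and 1 rose in EY vs N, with a median of -0.44, and after median-of-ratios scaling 5 fell and 0 rose, with a median of -0.79. Hhip, a pathway target that binds and sequesters hedgehog ligands, went from 0.804 to 2.87 TPM in N to 0.0303 to 0.171 TPM in EY (log2 fold change -3.14, SE 0.37, adjusted p = 2.24e-06). Kif7, a kinesin that regulates GLI proteins in the cilium, had a log2 fold change of -1.36 (adjusted p = 0.00784), and all 6 EY mice lay below N for both genes. Gas1, a co-receptor and the most abundant gene of the list, had 92.6 to 126 TPM in N and 25.2 to 95.8 TPM in EY. Disp1, needed to release the ligands, fell by 0.88 on the log2 scale (adjusted p = 0.00455). Smo, the signal transducer, was named after its values were seen as the only higher gene (log2 fold change 0.56, adjusted p = 0.00766), and no hedgehog gene passed as higher after scaling. The target Gli1 overlapped between N (2.8 to 7.27 TPM) and EY (1.43 to 5.24 TPM). Among EY mice, mouse 4 had the lowest sums of these hedgehog genes (45.6 TPM) and of fibroblast marker genes (34.6 TPM). EY mouse 6, the highest in Gli2, had the highest sums of both (133 and 206 TPM). The part of fibroblasts in the hedgehog and Gli2 values was not tested.

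Id1 and Id3 encode partners that keep basic helix-loop-helix factors off DNA and are direct targets of BMP signaling. Id3 stood at 112, 159, 102, 162 and 109 TPM in N, at 165, 110, 127, 158 and 81.1 TPM in E, and at 68.0, 85.2 and 107 TPM in Y. In EY it ran from 62.4 to 83.1 TPM with a median of 76.4 TPM. All EY mice lay below all N mice, and 2 of 3 Y mice did too. In EY vs N its log2 fold change was -0.79 (SE 0.18, adjusted p = 0.00194 by limma), with 6 of 6 EY mice below all N mice. With only the 3 N mice that had both Krt14-CreERT and LSL-rtTA, it was -0.74 and did not pass (adjusted p = 0.0136, range over all alternatives 6.34e-05 to 0.0136). Id1, the most abundant of the 10, had 394, 512, 608, 874 and 727 TPM in N and 402 to 603 TPM in EY (median 474), all within the N range. Its log2 fold change was -0.32 (SE 0.2, adjusted p = 0.231). After median-of-ratios scaling it was -0.69 (adjusted p = 0.0169) and by voom -0.49 (adjusted p = 0.0449), which did not pass either.

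The start of Id3 is shown as that of the factor that fell (RefSeq, GRCm38.p6, chr4:136143572-136143871, plus strand). Capitals mark CATTCC at -203, the TEAD motif GGAATG read on the other strand.
Id3 promoter: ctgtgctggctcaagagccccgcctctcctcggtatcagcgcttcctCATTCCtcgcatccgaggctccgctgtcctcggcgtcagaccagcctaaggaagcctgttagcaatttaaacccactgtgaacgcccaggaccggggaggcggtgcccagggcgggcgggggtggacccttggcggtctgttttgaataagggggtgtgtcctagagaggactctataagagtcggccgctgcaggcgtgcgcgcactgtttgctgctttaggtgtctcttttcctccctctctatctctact
Promoter entries were matched for 6 of the 10 genes, and for Trp63, Pitx1, Klf5 and Id1 there was none. Sox2, Gli2 and Lrig1 held none of GGAATG (TEAD), TTTNNCGC (E2F) and GGCGCC, searched on both strands with no overlap between motifs. Among 32851 promoters of the same length, 14.7% held GGAATG, 5.17% TTTNNCGC and 11.9% GGCGCC. A match describes letters in a window and names no bound factor.

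Other genes of the BMP pathway, 19 of which were tested, were lower in 6 cases and higher in 2, with a median of -0.13 (after scaling 7, 2 and -0.5). Bambi, a decoy receptor induced by BMP, went from 29.8 to 72.5 TPM in N to 4.57 to 7.37 TPM in EY (log2 fold change -2.95, SE 0.2, adjusted p = 5.74e-09). Id4, a sister of Id1 and Id3, went from 26.2 to 72.3 TPM to 3.76 to 9.37 TPM (log2 fold change -2.65, adjusted p = 2.19e-06). Id2, the most abundant of the list, had a log2 fold change of -1.06 (adjusted p = 0.000405). For these 3 genes all 6 EY mice were below all N mice. Smad9, a signal transducer at the edge of detection, had a log2 fold change of -1.68 (adjusted p = 0.000374). Fst, a secreted inhibitor of activin and BMP ligands, rose from 5.28 to 11.2 TPM in N to 14.2 to 83.3 TPM in EY (log2 fold change 2.25, adjusted p = 0.000148). Of the ID genes, 3 of 4 thus fell in EY and Id1 did not pass.

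Lrig1, the receptor brake, was higher on average in EY but overlapped with N. It stood at 1.18, 0.582, 0.682, 0.628 and 0.505 TPM in N, at 0.682, 0.928, 0.634, 0.79 and 0.879 TPM in E, and at 1.12, 0.684 and 0.847 TPM in Y. In EY it ran from 0.867 to 1.35 TPM with a median of 1.16 TPM. N mouse 1 stood apart from its group, and 3 of 6 EY mice exceeded it, while all 6 exceeded the other N mice. The log2 fold change was 0.64 (SE 0.21, adjusted p = 0.0212 by limma), which did not pass. Without N mouse 1 it was 0.82 and passed (adjusted p = 0.00284, range over all alternatives 0.00284 to 0.271). Lrig1 overlaps Slc25a26, and how reads from the shared stretch were assigned is not known.

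Of 6 LRIG and growth factor receptor genes tested beside Lrig1, 2 were higher and 1 was lower in EY vs N, with a median of 0.03. After median-of-ratios scaling 2 were higher and 3 lower, with a median of -0.34. Met, the hepatocyte growth factor receptor, went from 0.73 to 1.42 TPM in N to 2.69 to 6.06 TPM in EY (log2 fold change 2.12, adjusted p = 8.47e-07). Egfr, the receptor that LRIG1 restrains, went from 2.63 to 4.02 TPM to 4.94 to 8.48 TPM (log2 fold change 0.92, adjusted p = 9.06e-05). Lrig3, a relative of Lrig1, went from 10.6 to 15.1 TPM to 3.94 to 8.97 TPM (log2 fold change -1.13, adjusted p = 0.000414). In each case 6 of 6 EY mice were outside the N range. Erbb3, the most abundant, did not pass (log2 fold change 0.25, adjusted p = 0.14). Lrig1 and Lrig3 therefore had opposite signs in EY.

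Beyond these pathways, 12 close relatives of the 10 genes were tested, of which 1 was higher in EY vs N and 3 were lower, with a median of -0.37. After median-of-ratios scaling 0 were higher and 5 lower, with a median of -0.73. Trp53, the tumor suppressor related to Trp63 whose protein E6 targets, had a log2 fold change of 0.61 (adjusted p = 0.00229) and no longer passed after that scaling. The lower relatives were Id4, Lrig3 and Id2, given above. Klf4, the most abundant, did not pass (log2 fold change 0.11, adjusted p = 0.573). Among 19 other epithelial transcription factors, 4 were higher and 6 were lower, with a median of -0.12 (after scaling 3, 7 and -0.49). Pax9, a factor of oral filiform papillae, went from 64.8 to 107 TPM in N to 24.0 to 41.8 TPM in EY (log2 fold change -1.38, adjusted p = 8.31e-07). Foxn1, a differentiation factor of keratinocytes, fell by 1.36 on the log2 scale (adjusted p = 1.89e-05). Sox9 (log2 fold change 2.67, adjusted p = 0.000876) and Elf3 (2.05, adjusted p = 8.3e-07) rose. Sox15, the most abundant, did not pass (0.35, adjusted p = 0.111). Pax9, Foxn1, Sox9 and Elf3 were named by the size of their change among passing genes of the list. That they moved by more than Trp63, Sox2 or Pitx1 in the same mice follows from this choice.

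With active YAP alone, none of the 10 factors passed. Y vs N and EY vs N share the N mice, so the values are set side by side and not compared by a test. Id3 had a log2 fold change of -0.56 in Y vs N (SE 0.22, adjusted p = 0.0935 by limma), with 2 of 3 Y mice below all N mice. Klf5 had 0.24 (SE 0.11, adjusted p = 0.157), with 2 of 3 Y mice above all N mice, but 0.04 after median-of-ratios scaling and -0.05 after quantile normalization. Bmi1 had 0.21 and Gli3 0.09, and Gli3 turned to -0.02 after median-of-ratios scaling. By limma 0 of 10 passed in Y vs N, beside 8.51% of all genes, and voom on recovered reads called 0. Of the 10, 2 had an unadjusted limma p under 0.05, as had 6562 of all 22745 genes. None of the 10 was free of overlap, as 21.1% of all genes were, and the smallest exact p for 3 against 5 mice is 0.0357. In the same comparison Id2 (-1.1, adjusted p = 0.00556), Id4 (-1.65, adjusted p = 0.0054) and Bambi (-1.39, adjusted p = 0.000817) fell, as did Hhip (-1.9, adjusted p = 0.00682).

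None of the 10 factors passed with E6 and E7 alone. The largest differences were those of Gli3, with a log2 fold change of 0.4 (SE 0.21, adjusted p = 0.405 by limma), and Klf5, with 0.22 (SE 0.09, adjusted p = 0.274). For Gli3 1 of 5 E mice was above all N mice, and for Klf5 3 of 5 were. Gli3 had 0.64 by voom (adjusted p = 0.208) and 0.63 with exon lengths (adjusted p = 0.295 by limma), neither of which passed. Id3 had -0.02 and Bmi1 0.12. By limma 0 of 10 passed in E vs N, beside 1.75% of all genes, and voom called 0. Of the 10, 1 had an unadjusted limma p under 0.05, as had 3358 of all 22745 genes. No factor was free of overlap, against 4.57% of all genes. None of the hedgehog, BMP, Polycomb, receptor or epithelial factor genes passed in E vs N either, whereas all 9 cell cycle genes did.

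Set against the single transgenes, the EY epithelium differed most clearly in Bmi1. Against Y, Bmi1 had a log2 fold change of 0.91 (SE 0.18, adjusted p = 0.00497 by limma). This call was lost without Y mouse 1, Y mouse 2, EY mouse 2 or EY mouse 4, with log2 fold changes of 0.81 to 1.09 over the fits without 1 mouse and adjusted p up to 0.0413. Klf5 had 0.39 against Y (adjusted p = 0.0288 by limma) and did not pass. Thus 1 of 10 passed in EY vs Y, beside 3.53% of all genes. Against E, 3 of 10 passed, beside 25.3% of all genes. Bmi1 had 1.01 (SE 0.16, adjusted p = 6.35e-05) and Klf5 0.41 (SE 0.09, adjusted p = 0.00175), both by limma. The Klf5 call was lost after median-of-ratios scaling (0.14, adjusted p = 0.162), quantile normalization (0.21, adjusted p = 0.0244) and by voom (0.27, adjusted p = 0.0148). Id3 had -0.77 (SE 0.18, adjusted p = 0.00304), with 5 of 6 EY mice below all E mice, and this call was lost without E mouse 1 or E mouse 4 (adjusted p up to 0.0117).

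The interaction asks whether both transgenes together gave more or less than their separate log2 changes added. Bmi1 had the largest value, 0.8 (SE 0.24), with an unadjusted limma p of 0.00456 and an adjusted p of 0.14. By limma 0 of 10 passed, beside 0.198% of all genes (45 genes), and voom called 0. Of the 10, 1 had an unadjusted limma p under 0.05, as had 3072 of all 22745 genes. Klf5 had 0.17 and Id3 -0.2, so for these genes a departure from the sum was not shown. For Bmi1 the value in EY vs N, 1.13, stands beside 0.12 in E and 0.21 in Y.

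Summed transcripts of layer and cell cycle markers differed between these groups. Cell cycle genes summed to 205 to 269 TPM in N, 453 to 818 TPM in E, 510 to 705 TPM in Y and up to 1370 TPM in EY (median 1340), with Pcna most abundant, and 9 of 9 were higher in EY vs N. The largest changes were in Ccnb1 (log2 fold change 3.52), Cdk1 (3.5), Ccna2 (3.08) and Top2a (2.93). Suprabasal genes summed to 91400 to 162000 TPM in N and 44200 to 66000 TPM in EY, with Krt13 most abundant, and 10 of 14 were lower. Krt76 had the largest change of these, from 2580 to 5340 TPM in N to 29.9 to 203 TPM in EY, followed by Krt84 (log2 fold change -3.83), Lor (-3.71) and Dsg1a (-3.54). Basal genes summed to 9320 to 14700 TPM in N, 9030 to 15600 TPM in E, 17200 to 31100 TPM in Y and 16100 to 32400 TPM in EY. Of 14 basal genes 6 were higher in EY (4 after median-of-ratios scaling), among them Krt14 (log2 fold change 1.43) and the integrin gene Itgb1 (1.39), and Krt15 (-1.27) and Col17a1 (-0.73) were lower. Trp63 thus stayed within the N range in all 6 EY mice while Krt14 and Krt5 rose and Krt15 fell. The part of layer composition in the values of the 10 factors was not tested.

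**Figure D5:**
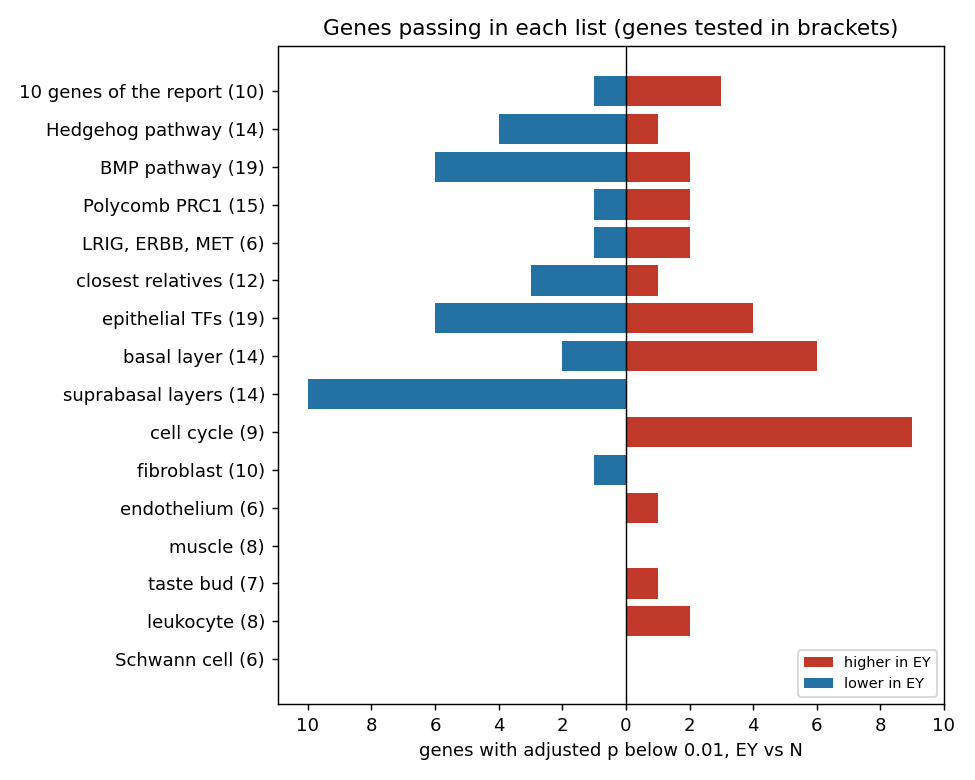
Number of genes of each list that passed an adjusted p of 0.01 in EY vs N, higher to the right and lower to the left, with the number tested in brackets. Of the 10 genes 3 were higher and 1 lower; cell cycle genes were higher in 9 of 9 and suprabasal genes lower in 10 of 14.

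Markers of other cell types were present at levels that differed widely between mice. Fibroblast genes summed to 341, 226, 94.4, 79.7 and 76.5 TPM in N, 113, 95.8, 79.5, 65.6 and 126 TPM in E, 28.6, 55.4 and 43.7 TPM in Y, and 34.6 to 206 TPM in EY, with 1 of 10 lower in EY vs N (Dcn, the most abundant) and none at 0 TPM. Endothelial genes summed to 8.53, 2.89, 2.31, 0.246 and 2.07 TPM in N, 3.59, 1.22, 1.28, 0.335 and 2.9 TPM in E, 0.916, 1.72 and 0.769 TPM in Y, and 2.05 to 11.7 TPM in EY. Cldn5 was the most abundant endothelial gene, and Kdr, Emcn and Cldn5 were at 0 in 4 mice each, all outside EY. Tie1 alone of 6 tested was higher in EY vs N, a call lost after median-of-ratios scaling and after quantile normalization. N mouse 1, which was high in Lrig1 and Gli3, had the highest sums of fibroblast, endothelial, leukocyte, Schwann cell, basal and suprabasal genes among the N mice. The part of these cells in the Lrig1 and Gli3 values was not tested.

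Muscle genes summed to 55.3, 224, 6.93, 34.8 and 43.4 TPM in N, 33.5, 27.9, 27.7, 7.64 and 115 TPM in E, 5.73, 124 and 13.5 TPM in Y, and 30.5 to 1170 TPM in EY. Acta1 was the most abundant, 0 of 8 passed in EY vs N by limma, and Myh2 was at 0 in 7 mice. Leukocyte genes summed to 759, 253, 116, 115 and 95.7 TPM in N, 295, 268, 272, 36.1 and 525 TPM in E, 816, 1000 and 585 TPM in Y, and 251 to 1040 TPM in EY. Of 8, S100a8 (the most abundant) and S100a9 were higher in EY vs N, genes that stressed keratinocytes also make, and Cd79a was at 0 in 6 mice. Taste bud genes summed to 10.2 to 38.3 TPM in N, 11.2 to 18.8 TPM in E, 13.6, 11.4 and 45.8 TPM in Y, and 37.9 to 469 TPM in EY. Krt18, a keratin of simple epithelia as well, was the most abundant, reached 373 TPM in EY and was the only 1 of 7 that passed. The median log2 fold change of the list was -0.02, and Snap25 was at 0 in 15 mice and Gnat3 and Prox1 in 4 each. Schwann cell genes summed to 19.1, 5.36, 16.3, 3.67 and 3.3 TPM in N, 4.81, 4.59, 4.5, 3.98 and 4.97 TPM in E, 2.87, 3.56 and 3.13 TPM in Y, and 4.14 to 12.4 TPM in EY, led by Mbp, with 0 of 6 passing by limma. Foxd3 was at 0 in 15 mice and Sox10 in 8. Median log2 fold changes in EY vs N were 1.77 for muscle, 0.98 for leukocyte and -0.24 for Schwann cell genes, beside 0.33 for all genes. They were 0.39 for fibroblast and 0.68 for endothelial genes. After median-of-ratios scaling the muscle median was 1.4 and the leukocyte median 0.76. The part of these cell types in the values of the 10 factors was not tested.

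Within groups, the factors varied with little relation to each other. After each group mean was taken out, the 45 pairs of factors had a median Pearson r of 0.21 over 19 mice, with 3 pairs above 0.5 and none below -0.5, given as a description without a test. Sox2 and Pitx1 had r = 0.63 and rho = 0.61, with r = 0.61 without the 2 mice farthest in Sox2. Trp63 and Gli3 had r = 0.6 and rho = 0.57, with r = 0.61 without the 2 mice farthest in Trp63. Gli3 and Lrig1 had r = 0.64 and rho = 0.52, which dropped to r = 0.38 without N mouse 1 and EY mouse 5 and so rests largely on those mice. Libraries of 1 mouse share their dissection and scaling, so the points are not free of common sources.

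Genes with the pattern most like Trp63 over the 19 mice, among 15604 genes with a mean of at least 1 TPM, were Tns4 (r = 0.833), Trappc10 (0.8) and Arid2 (0.798). For Sox2 they were Gm28364 (r = 0.801), Mknk2 (0.78) and Prkd2 (0.779). For Pitx1 they were Rnf10 (r = 0.925), Lrp10 (0.884) and Cadm4 (0.842). For Klf5 they were Golt1b (r = 0.947), Leprot (0.946) and Tfdp1 (0.945), the last a partner of E2F factors. After each group mean was taken out, these Klf5 values dropped to 0.761, 0.747 and 0.8. The first genes of Trp63, Sox2 and Pitx1 then had 0.883, 0.87 and 0.93, higher than before. Golt1b, like Klf5, had its lowest group median in N (14.3 TPM) and its highest in EY (28.4 TPM).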

How the data were processed

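The authors deposited a table of TPM values per gene symbol, made per their methods and the submitters' notes with STAR 2.7.9, SAMtools 1.7 and HTSeq 0.13.5 on GRCm39, and they tested counts with DESeq2 1.34.0. Libraries were selected with oligo-dT and sequenced on a NovaSeq. Whether HTSeq used strand is not stated. For 11109 genes with at least 1000 reads, the worth of 1 read was set against lengths from GENCODE M21 (GRCm38), which showed that gene spans were used as lengths. Reads were recovered from the steps of the values and came out whole for 24680 of 24680 genes above 0, within 0.01 read.

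All 19 columns were matched to the labels, and groups were taken from them. A gene was kept if 3 or more mice reached 0.1 TPM, and the 22745 kept were fitted on log2(TPM + 0.1) with limma 3.58.1 (lmFit and eBayes with a trend, R 4.3.3), 1 mean per group, and Benjamini-Hochberg adjustment over all genes. A gene passed at an adjusted p below 0.01. The study also required a log2 fold change above 1, which is counted apart. For log2 ratios of 5 pairs of genes, p came from two-sided exact permutation of the group labels, adjusted over 25 tests. The fits and the read recovery were tested on simulated data. The 10 genes and the lists of other genes were chosen with earlier results of these data known. Named genes were all 10, of each list its most abundant gene and up to 4 with the largest change among those passing in EY, Y or E vs N, marker genes of other cell types, and the 3 most like Trp63, Sox2, Pitx1 and Klf5. Outside this rule, Smo, Gli1, Krt5, Col17a1 and Sox2ot were named after their values were seen. A few genes of the lists that the rule picks, higher or lower, are not reported here, though they stay in the sums and medians of their lists. In the lists, 4 genes (Scube2, Sox3, Bub1 and Pkd2l1) were not analysed here.

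Alternatives were other pseudocounts, filters, scalings and thresholds, voom on recovered reads, a robust fit, only the groups compared, only 3 N mice, the mouse number as a block and leaving out each mouse. TPM recomputed with exon lengths was an alternative chosen after seeing the data. Promoters came from RefSeq (GRCm38.p6), another build than that of the counts, and were used only for their sequence.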

Additional observations from a re-analysis of the deposited data

Results flagged for a closer look

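N mouse 1 stood apart from its group in Lrig1, with 1.18 TPM (198 reads) against 0.505 to 0.682 TPM in the other 4 N mice. Its gap to the nearest of them was 0.737 of the whole range of the group. Chance alone sets apart about 1 in 20 groups, and 30 groups of the 10 genes were looked at, of which this was the only 1. The same mouse had the highest Gli3 among the N mice (0.216 TPM) and the highest sums of fibroblast (341 TPM), endothelial (8.53 TPM), leukocyte (759 TPM), Schwann cell (19.1 TPM), basal (14700 TPM) and suprabasal (162000 TPM) genes. Whether these go together was not tested.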

How the results depend on the processing

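Of 590 values under other settings, 545 kept their direction and their side of the threshold, 11 lost the threshold, 2 gained it and 32 changed direction. Bmi1 in EY vs N passed in 12 of 12 settings and 19 of 19 fits without 1 mouse, and Klf5 and Id3 in 11 of 12 and 19 of 19 each. Gli3 passed in 6 of 11 and 15 of 19. With only the 3 N mice, which leaves fewer samples, 2 genes passed in EY vs N. In EY vs Y, 2 passed at an adjusted p of 0.05, 2 under quantile normalization and 0 with only the groups compared; the cause of the quantile result was not tested. A filter of 1 TPM left 8 genes tested, without Gli2 and Gli3. Taking the mouse number as a replicate block gave 3 genes in EY vs N (Gli3 had an adjusted p = 0.0122), 0 in Y vs N, 0 in E vs N, 1 in EY vs Y, 3 in EY vs E and 0 for the interaction. Mice of the same number did not clearly deviate together, with r from -0.043 to 0.076 in 24 pairs. This shows no strong pairing by number and cannot exclude a weak one. No ratio passed under any alternative, but leaving out N or EY mice raised the smallest exact p that EY vs N could reach. For Gli2 to Gli3 in EY vs N, the exact permutation p ran from 0.00433 to 0.0238 over the alternatives. Fits with fewer mice therefore say little about the ratios.

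Changes of direction were confined to values within 0.4 of 0, none of which passed, and their cause was not tested. Median-of-ratios scaling gave Trp63 -0.35 in EY vs N and -0.21 in EY vs E, Sox2 -0.18, Pitx1 -0.16 and Gli3 -0.02 in Y vs N, and Gli2 -0.05 and Id1 -0.01 in E vs N. Quantile normalization gave Trp63 -0.36 in EY vs N and -0.22 in EY vs E, Sox2 -0.27, Pitx1 -0.25, Klf5 -0.05 and Bmi1 -0.02 in Y vs N, and Bmi1 -0.01 in E vs N. With only 3 N mice, Trp63 had -0.18 in EY vs N, Sox2 -0.16, Pitx1 -0.09, Gli3 -0.02 and Id1 0.04 in Y vs N, and Gli2 -0.12, Id3 0.03 and Lrig1 -0.01 in E vs N. The block gave Trp63 -0.01 in EY vs N, Sox2 -0.08 and Pitx1 -0.1 in Y vs N. Voom gave Trp63 -0.14 in EY vs N and -0.09 in EY vs E, Sox2 -0.08 and Pitx1 -0.06 in Y vs N. Exon lengths gave Trp63 -0.01 in EY vs N, Sox2 -0.03 and Pitx1 -0.01 in Y vs N.

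Without 1 mouse at a time, 895 of 950 values kept both, and 44 changed direction. Members passing in EY vs Y ranged from 0.0 to 1.0. Trp63 ranged from -0.1 to 0.13 in EY vs N, -0.15 to 0.08 in E vs N and -0.03 to 0.17 in EY vs E. Sox2 ranged from -0.1 to 0.15 in Y vs N, -0.12 to 0.06 in E vs N, -0.22 to 0.03 in EY vs Y and -0.13 to 0.0 in EY vs E. Pitx1 ranged from -0.26 to 0.3 in Y vs N, -0.13 to 0.06 in E vs N and -0.48 to 0.07 in EY vs Y. In E vs N, Bmi1 ranged from -0.0 to 0.23, Gli2 from -0.07 to 0.14, Id1 from -0.05 to 0.24 and Id3 from -0.13 to 0.13. In Y vs N, Gli2 ranged from -0.18 to 0.0 and Gli3 from -0.03 to 0.21. Id1 ranged from -0.25 to 0.16 in EY vs Y. Depth limits Gli2 and Gli3, with 33 to 151 and 38 to 160 reads per mouse.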
